A study of Mus musculus with 6 samples.

Results

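Melanin synthesis and melanosome genes were examined in the stria vascularis of Errb mutant and wild-type mice. The group held Tyr, Tyrp1, Dct, Pmel, Mlana, Oca2, Slc45a2, Gpr143, Trpm1 and Rab38, and a probe set belonged to it when the platform annotation gave it exactly 1 gene symbol and that symbol was 1 of these 10. All 10 genes were on the array, with 19 probe sets of the 45037 tested; 5 genes had 1 probe set and 5 had several. The samples were 6 pools of total RNA labelled as stria vascularis, 3 from wild-type mice and 3 from mice in which Errb was mutated by a conditional knock-out, with 10 mice per pool and 1 Affymetrix array per pool. Errb, also named Nr3b2 and Esrrb, codes for estrogen-related receptor beta, a nuclear receptor with no known natural ligand. The design text describes pooled inner ears, and only wild-type replicate 1 carries an age, 3 to 5 days after birth. The sources used here do not give the Cre line, the strain or the coat colour alleles of either genotype. The comparison asked whether transcripts of the pigment pathway differed between the genotypes, with arrays paired by replicate number.

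Melanin is made inside melanosomes, lysosome-related organelles of pigment cells. Tyrosinase, encoded by Tyr, carries out the first and limiting steps from tyrosine, and the related enzymes encoded by Tyrp1 and Dct act on later intermediates of eumelanin synthesis. In the stria vascularis the pigment cells are the intermediate cells, which derive from the neural crest, lie between the marginal and the basal cells and carry the potassium channel Kir4.1 that generates the endocochlear potential. Many pigment genes are direct targets of the transcription factor MITF, which binds E-box sequences of the form CATGTG.

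The RefSeq promoter windows (GRCm38.p6, 250 bases before to 50 after an annotated start) held 6 windows for 5 of the 10 genes. The tyrosinase family holds the member with the largest difference between genotypes, Tyr, and 1 with low values and no common direction, Tyrp1. Windows are shown for this family and for Trpm1, whose probe sets disagreed. They lie at chr7:87493463-87493762 on the minus strand (Tyr), chr4:80833963-80834262 on the plus strand (Tyrp1), chr14:118052197-118052496 on the minus strand (Dct) and chr7:64153585-64153884 on the plus strand (Trpm1, the upstream of its 2 windows). Capitals mark TCATGTG, an extended form of CATGTG, or its reverse complement.
Tyr: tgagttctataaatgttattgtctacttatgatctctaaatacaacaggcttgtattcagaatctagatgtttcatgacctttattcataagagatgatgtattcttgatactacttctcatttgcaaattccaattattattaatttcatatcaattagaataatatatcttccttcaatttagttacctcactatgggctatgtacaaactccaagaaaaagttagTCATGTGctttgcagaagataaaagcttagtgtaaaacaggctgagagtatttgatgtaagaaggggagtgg
Tyrp1: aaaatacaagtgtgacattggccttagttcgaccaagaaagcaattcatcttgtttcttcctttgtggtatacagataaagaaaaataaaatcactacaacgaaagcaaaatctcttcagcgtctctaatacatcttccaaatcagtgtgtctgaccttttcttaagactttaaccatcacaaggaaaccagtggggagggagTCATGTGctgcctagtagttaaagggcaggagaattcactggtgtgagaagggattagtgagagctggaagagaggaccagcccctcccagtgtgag
Dct: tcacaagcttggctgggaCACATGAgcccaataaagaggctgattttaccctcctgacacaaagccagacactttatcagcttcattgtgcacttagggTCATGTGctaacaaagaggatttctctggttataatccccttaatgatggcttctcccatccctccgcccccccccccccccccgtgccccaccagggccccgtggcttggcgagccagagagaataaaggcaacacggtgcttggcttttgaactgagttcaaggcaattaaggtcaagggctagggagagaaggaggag
Trpm1: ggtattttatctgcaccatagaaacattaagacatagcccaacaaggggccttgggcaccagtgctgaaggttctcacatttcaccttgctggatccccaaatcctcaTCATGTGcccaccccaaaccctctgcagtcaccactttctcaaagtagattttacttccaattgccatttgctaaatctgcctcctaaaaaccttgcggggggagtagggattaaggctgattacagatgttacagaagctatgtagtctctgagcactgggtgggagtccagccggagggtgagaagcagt
The match began 22 bases before the annotated start of Tyr, 47 before that of Tyrp1 and 142 before that of Trpm1. Dct held 2 matches, 151 and, on the other strand, 232 bases before its start. Searched on both strands, TCATGTG was in 4 of the 6 windows of these genes and in 3.77% of all 32851 windows of this length. These 4 are the windows shown, while those of Oca2 and of the downstream Trpm1 start held none. Of the pigment lists described below, it was in 1 of 25 windows of machinery genes. It was in 3 of 14 windows of other pigment genes and 0 of 10 of lineage regulators and ligands. The shorter CATGTG, which every TCATGTG contains, was in 6 of 6 and in 14.2% of all windows. CACGTG, another E-box sequence that neither of these contains, was in 1 of 6, the downstream Trpm1 window, and in 7.15% of all. A match describes the sequence and is not a measured binding site. TCATGTG was chosen as a form of the sequence that MITF is known to bind at pigment genes. Its share in windows of such genes is therefore a description and no independent support.

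Values are deposited log2 expression values, and differences are mutant minus wild type in same-numbered arrays, as the mean ± SD of 3 pairs (n = 3). Array medians ran from 6.07 to 6.95 and matched within pairs to 0.04, so array levels shifted between pairs more than between genotypes. In pair 1, 34.2% of all probe sets had exactly equal values on both arrays, and so did 2 of the 19 here, 1 each of Tyrp1 and Trpm1. The gap between the 3-prime and 5-prime control probe sets, which widens as RNA degrades, was 2.28 (wild type) and 2.57 (mutant) for Gapdh in pair 1, against -0.04 to 0.51 in the other pairs. Esrrb itself measured 9.68, 10.60 and 9.96 on the wild-type arrays and 9.76, 10.28 and 9.98 on the mutant arrays by its best expressed probe set, whose place relative to the deleted part is unknown here, so it does not check the genotype labels. In the labelled tissue, wild-type arrays held the marginal cell gene Kcne1 at 9.70 ± 0.48, and Dct was at percentile 98.7 to 99.4 of the probe sets of every array and Pmel at percentile 92.2 to 95.9, so pigment cell RNA was present in both genotypes. Nothing in the labels says whether the pools came from separate litters, so p-values cover the spread of these pools only, which may be partly technical. The number of arrays limits the precision.

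Most of the pigment genes were lower in the mutant in each pair, by amounts that varied between pairs, and none passed the test across all probe sets. In limma's paired fit, blocked on replicate number and with Benjamini-Hochberg adjustment over 45037 probe sets, 0 of the 19 had an adjusted p under 0.05, against 0.0933% of all probe sets; their adjusted p-values ran from 0.0701 to 0.986. Without the block the adjusted p was 1 for each of the 19 (background 0.00666%). At an unadjusted p under 0.05, 11 were lower and 1 was higher in the paired fit, against 3.07% and 4.11% of all probe sets, and 3 were under it in the unpaired fit, against 0.209%. A total of 12 probe sets, from 7 genes, was lower in all 3 pairs (background 8.41%) and 2, both of Rab38, were higher in all 3 (background 12.1%), while the other 5 were of mixed sign or equal in a pair. Among those 12 the largest difference of the 3 pairs was at least 2 times the smallest for 4. Probe sets of 1 gene share their transcript and are not independent of each other. The 10 genes, each by its best expressed probe set, had medians of -0.60, -0.71 and -0.50 in pairs 1 to 3, against 0.00, 0.00 and 0.02 for all 18193 genes. In RNA from a whole tissue, fewer cells of a type and less RNA per cell cannot be told apart.

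**Figure D1:**
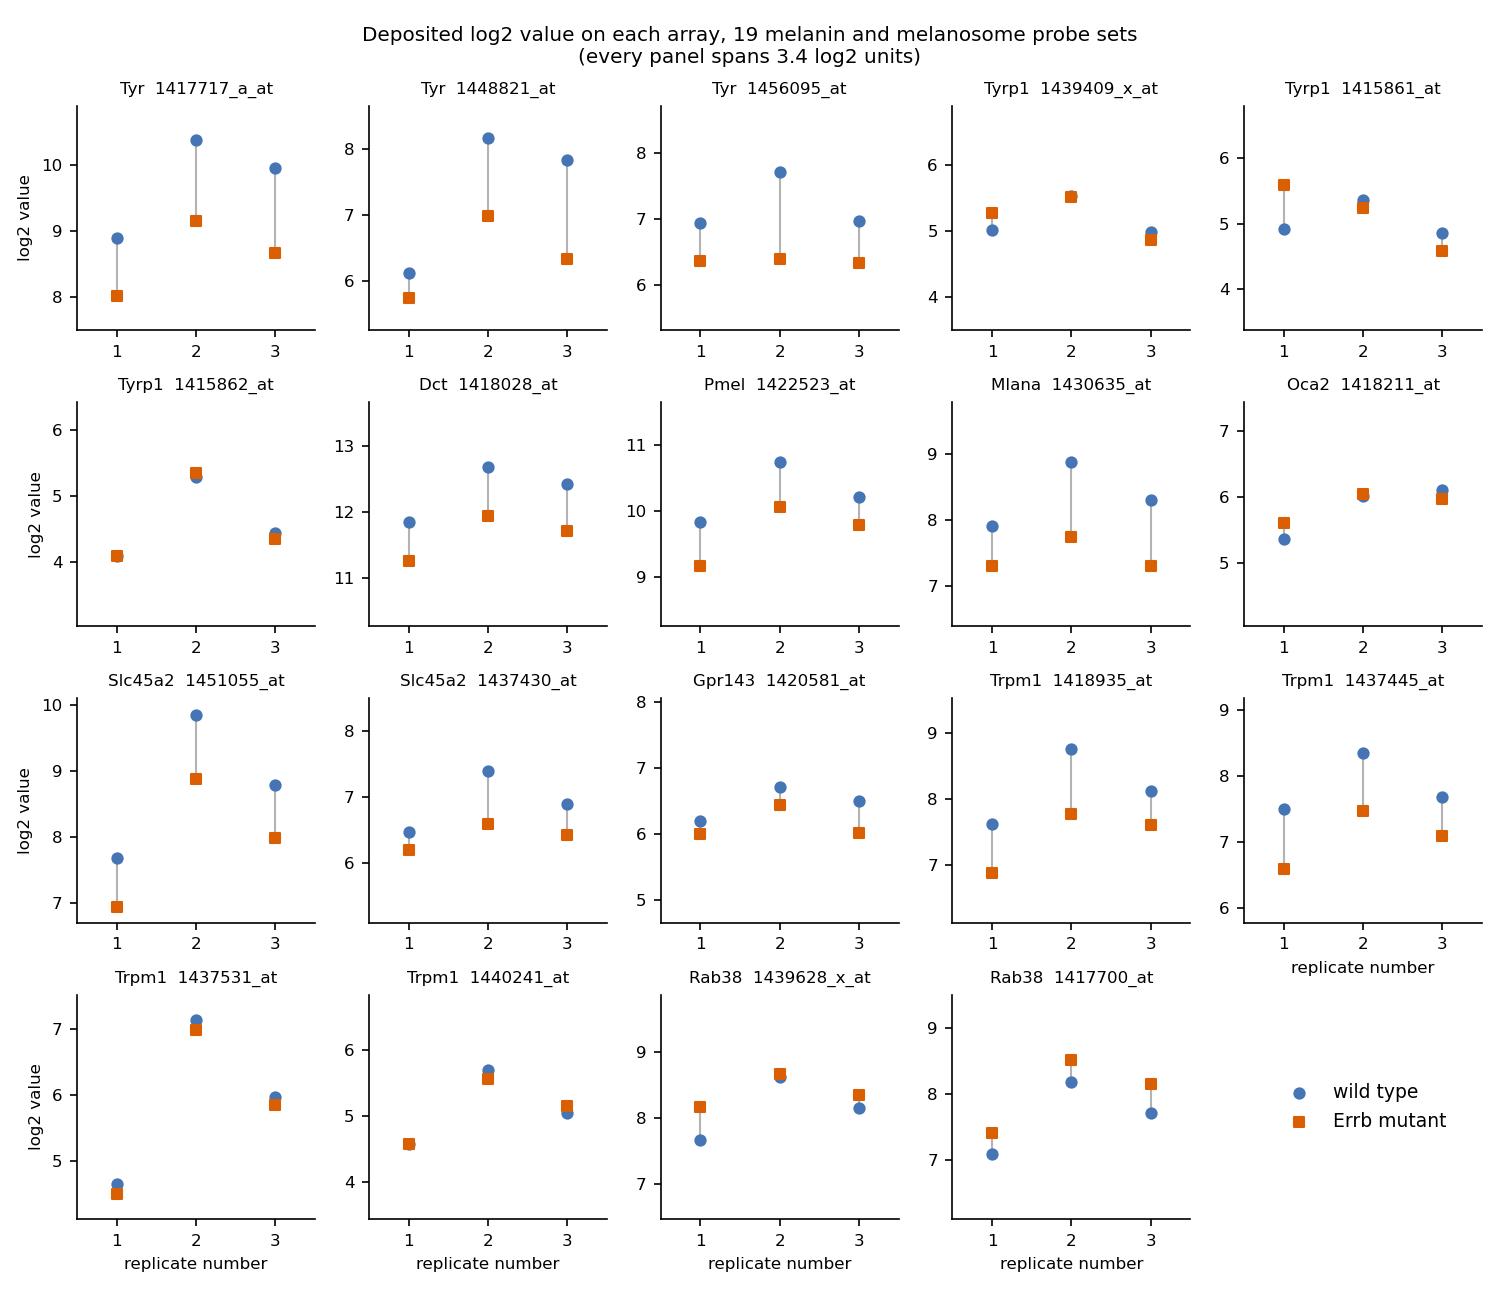
Deposited log2 value (vertical axis, every panel spanning the same 3.4 units) of the 19 probe sets on each array, by replicate number (horizontal axis), for wild type (circles) and Errb mutant (squares), with same-numbered arrays joined by a line. The mutant symbol lies below the wild-type symbol in all 3 pairs for 12 probe sets and above it in all 3 for the 2 of Rab38.

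Tyr, the gene of the limiting enzyme, had the largest difference. Its best expressed probe set, 1417717_a_at, measured 8.89, 10.38 and 9.96 on wild-type arrays 1 to 3 against 8.02, 9.15 and 8.67 on the mutant arrays. Each mutant array was below its wild-type partner, while mutant replicate 2 exceeded wild-type replicate 1, so the groups overlapped on the deposited scale. The difference of -1.13 ± 0.23 is a 2.18-fold lower linear value in the mutant, with a 95% interval of -1.39 to -0.87 (limma adjusted p = 0.0701, paired). It was the probe set with the 53rd smallest p of all, and 42 passed. With eBayes run with trend and robust options it passed, at adjusted p = 0.0399; over its 12 alternatives the adjusted p ran from 0.0399 to 1. The other probe sets of Tyr went the same way. For 1448821_at the wild-type values were 6.11, 8.16 and 7.83 and the mutant values 5.74, 6.98 and 6.32, a difference of -1.02 ± 0.59. For 1456095_at they were 6.94, 7.70 and 6.97 against 6.36, 6.39 and 6.32, a difference of -0.84 ± 0.40. Here every mutant array was below every wild-type array, and the 3 mutant values lay within 0.07 of each other. Their adjusted p-values were 0.383 and 0.302 in the paired fit.

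Dct, which encodes dopachrome tautomerase, measured 11.86, 12.68 and 12.43 in wild type and 11.26, 11.94 and 11.71 in the mutant by its only probe set. The pairs were close to each other, at -0.59, -0.74 and -0.72, and only mutant replicate 2 exceeded a wild-type array. The difference of -0.68 ± 0.08, a 1.61-fold lower linear value, had an interval of -0.86 to -0.51 and an adjusted p of 0.0870 in the paired fit. It passed with the trend and robust options, at 0.0303, within a range of 0.0303 to 1 over 12 alternatives. These 2 probe sets, of Tyr and Dct, were the only ones of the 19 to pass under any alternative that kept the threshold of 0.05, and with the trend and robust options 0.129% of all probe sets passed.

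Tyrp1, which encodes tyrosinase-related protein 1, gave low values in both genotypes and no common direction. Its probe set 1439409_x_at measured 5.02, 5.53 and 4.99 in wild type and 5.28, 5.52 and 4.87 in the mutant. Probe set 1415861_at measured 4.92, 5.36 and 4.85 against 5.58, 5.23 and 4.59, and 1415862_at measured 4.09, 5.29 and 4.44 against 4.09, 5.35 and 4.34. The genotypes overlapped in all 3, the mean differences were 0.04 ± 0.20, 0.09 ± 0.50 and -0.02 ± 0.08, and the signs changed when pair 1 was left out of the first 2 or pair 3 out of the third. The widest interval was -0.39 to 0.57 (adjusted p = 0.907). Across arrays the 3 probe sets lay between the 14.1 and the 40.0 percentile of all probe sets, and the deposited values give no measure of signal over background.

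Within each pair the difference of Tyr was compared with those of its 2 relatives, each by its best expressed probe set. The difference of Tyr minus that of Tyrp1 was -1.13, -1.21 and -1.17 in pairs 1 to 3 (mean -1.17 ± 0.04). Dct minus Tyrp1 had a mean of -0.73 ± 0.13, and Tyr minus Dct a mean of -0.44 ± 0.15. The sign was the same in 3 of 3 pairs each time. An exact two-sided sign-flip test gave p = 0.25 for each, also after adjustment over these 3 comparisons, and 0.25 is the smallest value that 3 pairs allow. The Tyrp1 probe set in these comparisons, 1439409_x_at, lay at the 23.6 to 34.0 percentile of all probe sets. Its pairs differed by 0.26, -0.01 and -0.12. Those of 1415861_at, near it in level, differed by 0.66, -0.13 and -0.26. The narrow spread of Tyr minus Tyrp1 thus depends on the Tyrp1 probe set used.

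The genes of the melanosome's matrix and maturation were also lower. Pmel, whose product forms the amyloid fibrils on which melanin is laid down, measured 9.84, 10.74 and 10.21 in wild type and 9.16, 10.06 and 9.78 in the mutant. All 3 pairs were lower and the groups overlapped through mutant replicate 2, with a difference of -0.60 ± 0.15 (interval -0.81 to -0.39, adjusted p = 0.195). Mlana encodes MART-1, a melanosomal membrane protein that binds the Pmel protein and is needed for its processing. It measured 7.90, 8.87 and 8.29 in wild type and 7.30, 7.73 and 7.29 in the mutant. No mutant array reached the lowest wild-type array, and the difference was -0.91 ± 0.28, a 1.88-fold lower linear value (interval -1.21 to -0.61, adjusted p = 0.164).

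**Figure D2:**
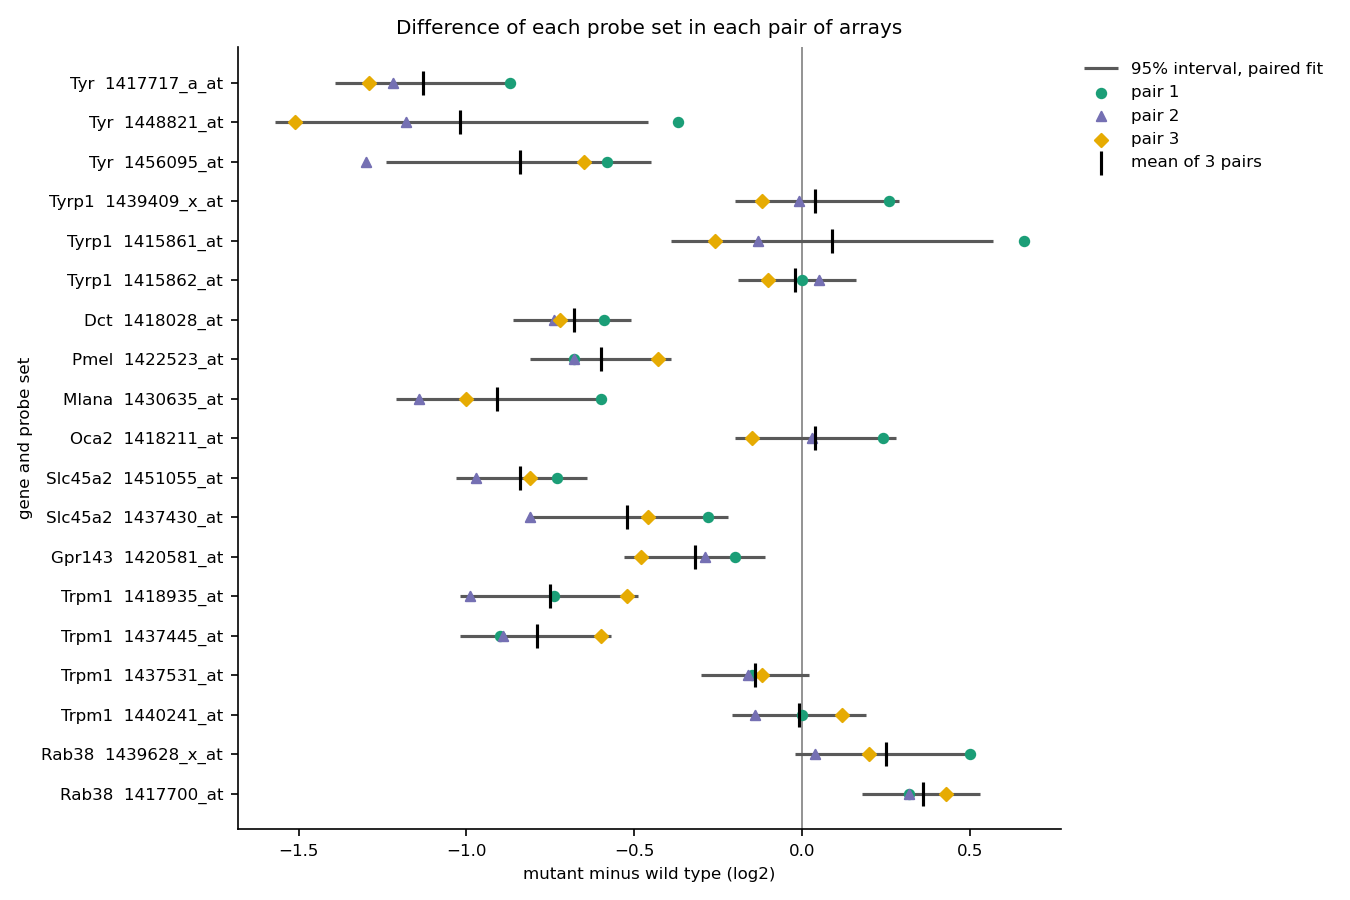
Mutant minus wild type (horizontal axis, log2) for each probe set (vertical axis) in pairs 1, 2 and 3 (symbols), with the mean of the pairs (vertical tick) and the 95% interval of limma's paired fit (line). The intervals of 11 probe sets lie below 0, that of Rab38 1417700_at lies above 0, and 7 span 0.

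Among transporters and channels, Slc45a2 and Trpm1 were lower. Slc45a2 encodes a transporter-like protein that melanosomes need for a normal pH. Its probe set 1451055_at measured 7.67, 9.85 and 8.79 in wild type and 6.94, 8.88 and 7.98 in the mutant. The pairs differed by -0.73, -0.97 and -0.81, far less than the 2.18 between wild-type replicates 1 and 2, so the groups overlapped here even after median centring. The mean was -0.84 ± 0.12, with adjusted p = 0.0704 paired. Its second probe set, 1437430_at, measured 6.47, 7.39 and 6.89 against 6.19, 6.58 and 6.42, a difference of -0.52 ± 0.27 (adjusted p = 0.400).

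Trpm1, a cation channel gene and known MITF target, had 4 probe sets that fell into 2 kinds. By 1418935_at it measured 7.62, 8.76 and 8.12 in wild type and 6.88, 7.77 and 7.60 in the mutant, and by 1437445_at 7.50, 8.36 and 7.69 against 6.60, 7.47 and 7.09. Every mutant array was below every wild-type array for the latter. The differences were -0.75 ± 0.23 and -0.79 ± 0.17 (adjusted p = 0.197 and 0.108). The other 2 lay lower in the arrays' distributions. Probe set 1437531_at differed by -0.14 ± 0.02 (4.64, 7.14 and 5.97 against 4.49, 6.98 and 5.85) and 1440241_at by -0.01 ± 0.13 (4.58, 5.69 and 5.04 against 4.58, 5.56 and 5.15). The sign of the last turned with quantile normalization or median centring. The sources used here do not say which transcripts or ends of Trpm1 each probe set reads.

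Gpr143 and Oca2 differed less. Gpr143, a receptor of the melanosome membrane known from ocular albinism, measured 6.19, 6.71 and 6.49 in wild type and 5.99, 6.43 and 6.01 in the mutant. Each pair was lower, at -0.20, -0.29 and -0.48, with a mean of -0.32 ± 0.15 (interval -0.53 to -0.11, adjusted p = 0.474). Oca2, which encodes the P protein, which melanosomes need for a chloride current, measured 5.37, 6.02 and 6.12 against 5.61, 6.05 and 5.97. Its pairs had both signs and its difference was 0.04 ± 0.19, turning to -0.06 without pair 1, with an interval of -0.20 to 0.28.

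Rab38, a small GTPase that carries enzymes such as tyrosinase to maturing melanosomes, was higher in every pair. Probe set 1417700_at measured 7.09, 8.19 and 7.72 in wild type and 7.41, 8.52 and 8.15 in the mutant, and 1439628_x_at measured 7.67, 8.63 and 8.16 against 8.17, 8.67 and 8.35. On the deposited scale the groups overlapped for both. The differences were 0.36 ± 0.06 (interval 0.18 to 0.53, adjusted p = 0.317) and 0.25 ± 0.23 (interval -0.02 to 0.51, adjusted p = 0.722). No other of the 10 genes was higher in all 3 pairs.

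Because arrays shifted between pairs, the overlap of the genotypes was also read after median centring, an alternative chosen after the data were seen. On the deposited scale every mutant array was below every wild-type array for 3 of the 19 probe sets, against 0.306% of all. After centring this held for 9 (background 1.24%), namely the 3 of Tyr, 2 of Trpm1, 1 of Slc45a2, and those of Dct, Pmel and Mlana, and the mutant arrays were all above for the 2 of Rab38 (background 0.935%). The counts were 9 and 2 again after quantile normalization, against 1.45% and 0.95%. The centred values of Dct were 12.27, 12.21 and 12.49 in wild type and 11.66, 11.48 and 11.81 in the mutant. Those of Pmel were 10.25, 10.28 and 10.26 against 9.55, 9.61 and 9.88, so the 3 wild-type pools lay within 0.03 of each other.

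Probe sets at higher level differed more as a group, though not in order of their level. The 12 probe sets at or above the median level of all probe sets had pair medians of -0.60, -0.93 and -0.62 and the 7 below it 0.00, -0.13 and -0.12; all probe sets at or above that level had a median of 0.02 ± 0.02. Of the 12, 10 were lower in all pairs, against 10.8% of all probe sets at that level. Among the 12, Dct at a mean of 11.98 over the 6 arrays differed by -0.68 and Pmel at 9.96 by -0.60, while the Tyr probe set 1448821_at at 6.86 differed by -1.02. Exactly equal values in pair 1 were also more common at low level, with 46.0% of all probe sets below the median level and 22.4% of those at or above it, and their part in the small differences of the low probe sets was not tested. The difference was smallest in pair 1 for 8 of the 12 probe sets that were lower in all pairs, in pair 3 for the other 4 and in pair 2 for 0. In pair 2 the 3-prime to 5-prime gaps of Gapdh and Actb differed between the genotypes by -0.04 and -0.05, and the median of the 19 probe sets was -0.68. In pairs 1 and 3, where the mutant gaps were wider by 0.28 to 0.56, it was -0.28 and -0.46. The part of RNA quality in the differences was not tested.

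**Figure D3:**
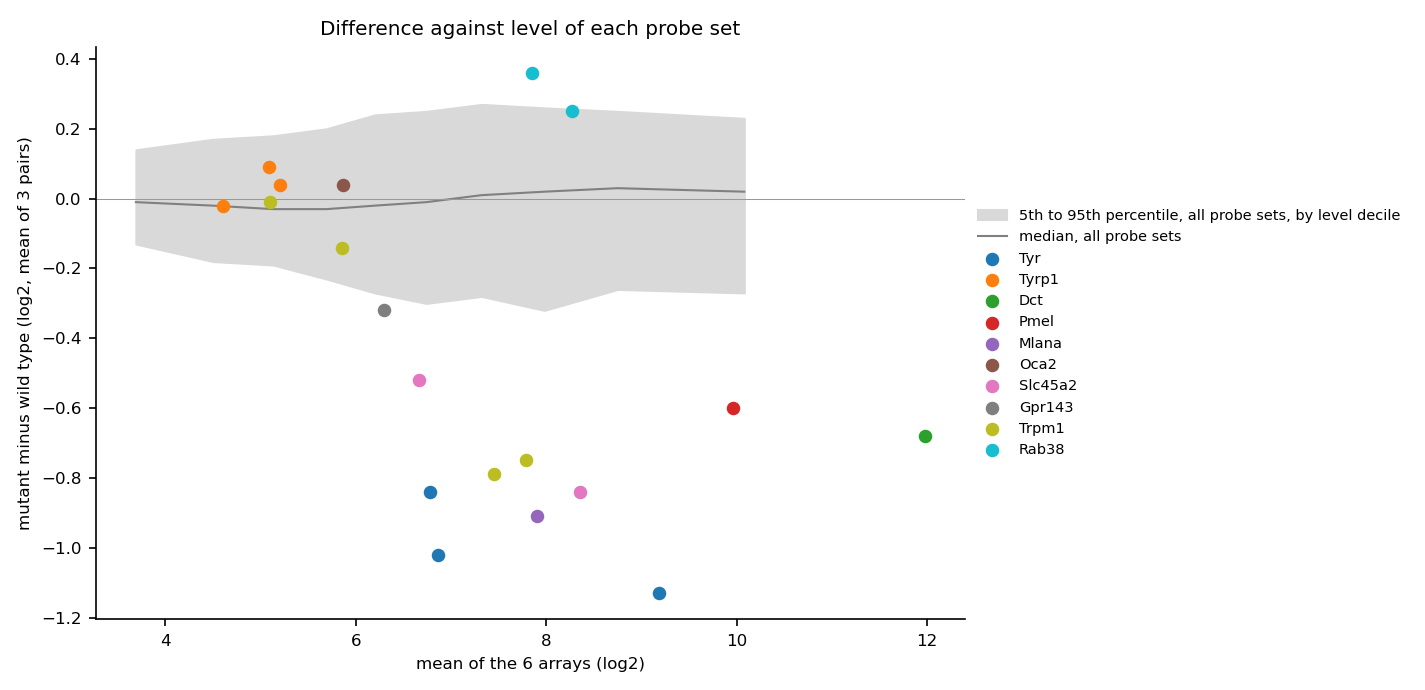
Mutant minus wild type (vertical axis, log2, mean of 3 pairs) against the mean of the 6 arrays (horizontal axis, log2) for the 19 probe sets, coloured by gene. The grey band spans the 5th to 95th percentile of the difference in each level decile of all probe sets, drawn at the decile's median level up to 10.08. The probe sets of Tyr, Dct, Pmel, Mlana, Slc45a2 and Gpr143 and 2 of Trpm1 lie below the band, or below its level at the right end for Dct. Rab38 1417700_at lies above it, the other Rab38 probe set lies at its upper edge, and the other 2 of Trpm1 and those of Tyrp1 and Oca2 lie within it.

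Genes for the general machinery of melanosome formation and transport had differences near 0. The lists from here on use each gene's best expressed probe set. Over all 18193 genes read this way, 0.148% passed in limma's paired fit and 0.0055% in the unpaired fit, 3.31% were lower and 4.04% higher at an unadjusted p under 0.05, 9.03% were lower and 12.9% higher in all pairs, and 48.7% were lower by mean. Of 23 measured genes for BLOC and HPS complexes, the AP-3 adaptor, Rab proteins and the myosin Va carrier, 0 passed in limma's paired fit (0 also unpaired) and 0 had an unadjusted p under 0.05 in either direction; 2 were lower and 3 higher in all pairs. Their median was 0.02 ± 0.03 and the range of differences -0.35 to 0.17. Rab27a, which links mature melanosomes to myosin Va through melanophilin, differed by -0.35 ± 0.37 (adjusted p = 0.721), Rab32, the close relative of Rab38, by 0.15 ± 0.10 (0.740) and Myo5a by 0.17 ± 0.17 (0.745). Ap3s1, an AP-3 subunit with the highest value in the list, differed by 0.00 ± 0.03.

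Of 11 other measured melanosome and pigment genes, 0 passed in either fit and 1 was under an unadjusted p of 0.05, with a median of -0.03 ± 0.03. That was Gpnmb, a melanosomal glycoprotein gene related to Pmel, which differed by -0.66 ± 0.10 (pairs -0.78, -0.60 and -0.61, adjusted p = 0.108). Apoe, whose product takes part in the formation of Pmel fibrils, differed by -2.65 in pair 1 and by -0.07 and -0.48 in pairs 2 and 3, so its mean of -1.07 rests on pair 1. Slc24a4, an ion exchanger gene, differed by -0.10 ± 0.12 (adjusted p = 0.764).

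Of 8 regulators and ligands of the melanocyte lineage, 7 were lower by mean (48.7% of all genes) and 0 passed in either fit. In this list 4 were lower in all pairs (9.03% of all genes) and 2 were lower at an unadjusted p under 0.05 (3.31% of all genes), with a median of -0.16 ± 0.07. Mitf, the transcription factor gene, differed by -0.71 ± 0.28 (pairs -0.46, -1.01 and -0.65, adjusted p = 0.261) and the endothelin receptor gene Ednrb by -0.32 ± 0.12 (0.442). Sox10, a neural crest factor that Schwann cells and other epithelia of the ear also express, differed by 0.09 ± 0.27, and Pax3 by -0.15 ± 0.05. Genes of intermediate cells outside melanin synthesis were lower by mean in 4 of 4 (48.7% of all genes). They were lower in all pairs in 2 of 4 (9.03% of all genes). Their median was -0.42 ± 0.15, with 0 passing in either fit. Kcnj10, which encodes Kir4.1, differed by -0.73 ± 0.28 (adjusted p = 0.240), the receptor gene Met by -0.35 ± 0.15 (0.439) and Kcnj13 by -0.38 ± 0.40 (0.721). Kcnj13 was higher in pair 2, by 0.09. Cd44 differed by -0.14 ± 0.47 and was higher in pair 1, by 0.35.

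**Figure D4:**
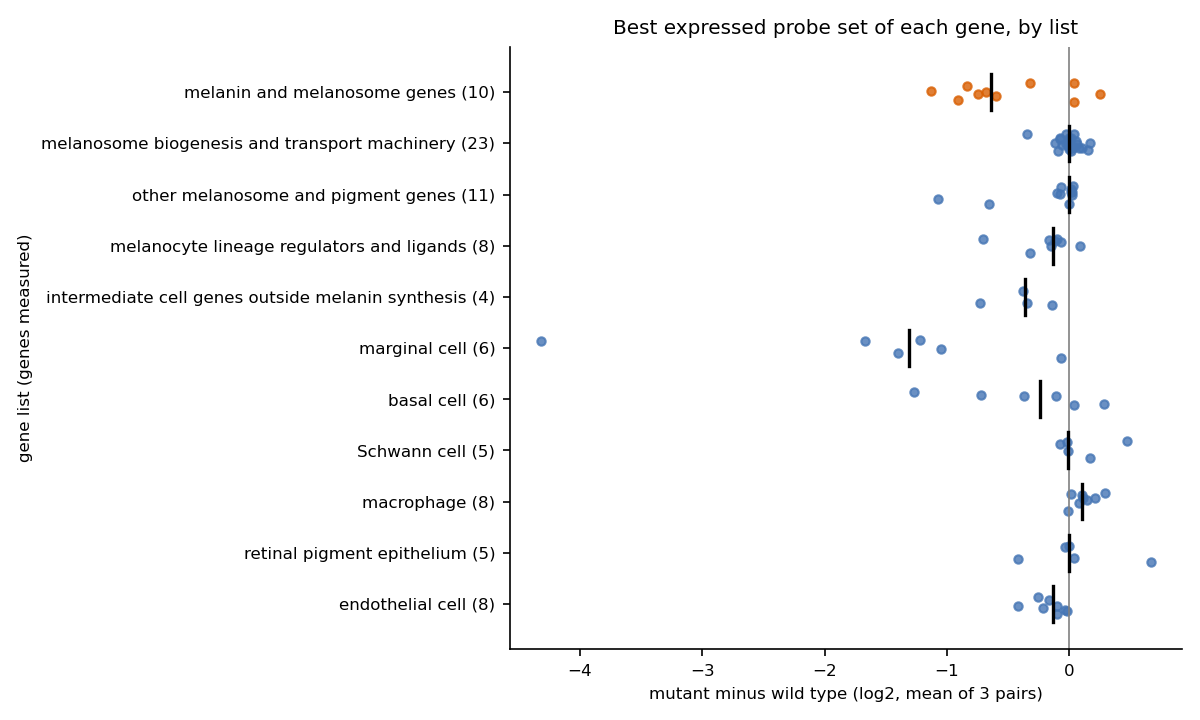
Mutant minus wild type (horizontal axis, log2, mean of 3 pairs) of each gene's best expressed probe set, by gene list (vertical axis, number of genes measured), with the median of the genes as a black bar. The median bar of the 10 melanin and melanosome genes is at -0.64 and that of the 23 machinery genes at 0.00; the marginal cell genes reach -4.32 at Kcne1.

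Markers of marginal cells, the epithelium next to the pigment cells, were lower as well. Of 6 measured marginal cell genes, 5 were lower in all pairs (9.03% of all genes) and 3 passed in the paired fit (0.148% of all genes). Their median was -1.34 ± 0.18. The sixth was Esrrb itself, at -0.07 ± 0.21 and higher in pairs 1 and 3. Kcne1 fell by 4.32, Kcnq1 fell by 1.67 and Slc12a2 fell by 1.22 on the log2 scale (adjusted p = 0.00373, 0.0193 and 0.0395). Without the replicate block Kcne1 alone of the 6 passed (adjusted p = 0.0071), and the adjusted p was 1 for Kcnq1 and Slc12a2. Their summed level, as log2 of the summed linear values, ran from 13.12 to 14.04 in wild type and from 11.80 to 12.73 in the mutant. Of 6 basal cell genes 1 passed (0.148% of all genes) and 3 were lower in all pairs (9.03% of all genes). Gjb6 passed and fell by 1.27 (adjusted p = 0.0304 paired and 1 without the block). Gjb2 differed by -0.72 ± 0.32, Cldn11 by -0.37 ± 0.16 and Nr2f2 by -0.11 ± 0.16. Tjap1 differed by 0.04 ± 0.08 and Sox8 by 0.28 ± 0.70. The median of the basal list was -0.25 ± 0.16, with sums of 13.49 to 14.59 in wild type against 12.52 to 13.87 in the mutant. The sum of the 10 pigment genes ran from 12.57 to 13.55 in wild type and from 12.01 to 12.79 in the mutant, with differences of -0.56, -0.77 and -0.69 in pairs 1 to 3. Such sums weigh the highest genes most and do not describe every gene of a list. In wild type these were Dct (mean 12.32), Slc12a2 (12.72) and, for basal cells, Gjb2 (12.93) and Gjb6 (12.45). Dct alone differed by -0.59, -0.74 and -0.72. The part of marginal and basal cell proportions in the pigment gene differences was not tested.

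Markers of macrophages, Schwann cells, endothelium and retinal pigment epithelium gave medians smaller in size than those of marginal and basal cells. In these lists 0 genes passed in either fit. Of 8 macrophage genes the median was 0.14 ± 0.26, and the scavenger receptor genes Mrc1 (0.29 ± 0.36) and Cd163 (0.21 ± 0.25) and the receptor gene Csf1r (0.14 ± 0.15) had the smallest p-values. Only Csf1r was higher in all pairs. Of 5 Schwann cell genes the median was 0.03 ± 0.11, with the myelin genes Mag at 0.17 ± 0.23 and Mbp at -0.08 ± 0.10 and the transcription factor gene Egr2 at 0.47 ± 0.61. Of 8 endothelial genes, all 8 were lower by mean (48.7% of all genes) and 2 were lower in all pairs (9.03% of all genes). Their median was -0.16 ± 0.21, with pair medians of -0.35, -0.20 and 0.07. Pecam1 differed by -0.26 ± 0.01 (adjusted p = 0.454), Cldn5 by -0.42 ± 0.41, Tek by -0.22 ± 0.24 and Eng by -0.10 ± 0.24. Of 5 genes of the retinal pigment epithelium the median was 0.00 ± 0.06. Ttr, a thyroxine and retinol carrier gene, differed by 0.67 ± 0.15 (adjusted p = 0.143) and Rlbp1, a retinaldehyde binding protein gene, by -0.42 ± 0.05 (0.238). The visual cycle genes Rpe65 and Lrat were at percentile 30.4 to 37.7 and 7.57 to 11.0 of the arrays' probe sets and differed by 0.04 ± 0.06 and 0.00 ± 0.06.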

How the data were processed

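The authors deposited log2 expression values per probe set for 6 arrays, made with RMA (robust multi-array average) per the submitters' processing notes (the sources used here give no version or settings). That they are log2 was inferred from their range, 2.33 to 14.6, and they were not rescaled. Of 45101 probe sets, 64 controls were left out and none for low level; 34945 of the rest had 1 gene symbol in the platform annotation, 932 several and 9160 none.

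Tests used limma 3.58.1 in R 4.3.3 (lmFit and eBayes, two-sided) over 45037 probe sets, with the replicate number as a block, at an adjusted p of 0.05. Replicate numbers are the labels'. Same-numbered arrays deviated together from their genotype means (correlations 0.879, 0.818 and 0.746), above the limit of 0.1 for pairing, and exactly equal values on a wild-type and a mutant array occurred within same-numbered pairs (15406, 1185 and 1398 probe sets) and for 0 in any other wild-type and mutant combination. The sources used here do not say whether pairs were processed separately. By these correlations, a shared origin of a pair and joint processing of its arrays cannot be told apart.

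Every probe set of the 10 genes is reported. From 10 further lists (3 pigment lists and 7 of cell markers) the text names genes that passed, or else those with the smallest p and the highest value; a gene is represented there by its probe set with the highest mean, and 8 of 92 listed genes were not matched. Lrat and the basal cell genes other than Gjb6 were added with their values in view. The members and lists were chosen with earlier results of these data known. The fit was tested on simulated arrays with independent noise and without exactly equal values. That test does not check the p-values of the arrays used here. Alternatives changed the block, normalization, level filter, eBayes options, pairs, cross-hybridising probe sets, threshold and the use of gene means. The files name no genome build, so only RefSeq promoter windows have coordinates.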

Additional observations from a re-analysis of the deposited data

How the results depend on the processing

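Without the replicate block, 3 probe sets in all passed in place of 42, and with median centring or quantile normalization added, which was chosen after seeing the data, 2 and 2; the block changed no call of the 19 melanin and melanosome probe sets, of which 0 passed each time. With 1 pair left out, 0 to 7 of all probe sets and 0 of the 19 passed, on 1 residual degree of freedom. At an adjusted p under 0.1, 92 of all and 3 of the 19 passed, and with the trend and robust options 58 of all and 2 of the 19 (Tyr -1.13 at 0.0399 and Dct -0.68 at 0.0303). The median of the 19 moved from -0.48 to -0.72 when the 7 probe sets below the median level were left out, and ran from -0.57 to -0.37 when each pair was left out. With gene means in place of the best probe set, the median of the other melanosome and pigment genes was -0.08 in place of -0.03. Signs turned for the Trpm1 probe set 1440241_at, which was 0.01 after quantile normalization or median centring, with or without the block, and ran from -0.07 to 0.06 without 1 pair. They also turned without 1 pair for Tyrp1, which ran from -0.06 to 0.13 (1439409_x_at), -0.19 to 0.27 (1415861_at) and -0.05 to 0.03 (1415862_at), and for Oca2, from -0.06 to 0.13. The other 14 probe sets kept their sign under every alternative run. Deposited values give no signal over background, which limits what the lowest probe sets can show.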
